A study of Mus musculus with 18 samples.

Results

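The 9 genes described here encode inhibitors of proteases or their structural relatives. They were chosen with earlier results of these data known, and found by their symbols among the 19938 genes with a single-symbol probe set on the arrays. They are the secretory leukocyte peptidase inhibitor Slpi, the intracellular clade B serpins Serpinb1a, Serpinb2, Serpinb6a, Serpinb9 and Serpinb12, the collagen chaperone Serpinh1, and the cystatins Cstb and Cst3. Each was measured by 1 probe set. Total RNA came from terminal bronchiolar epithelial cells of mouse lung, on a mixed FVB/N and C57BL/6 background, from control mice and from Cebpa d/d mice at 0, 3 and 72 hr after naphthalene, with 3 arrays in each of the 6 groups. Naphthalene is turned into a toxic product by the cytochromes P450 of club cells, the secretory cells of the small airways, and is used to injure them. All 6 groups, those at 0 hr included, carry the naphthalene treatment label, and the labels give neither the age of the mice, nor whether a replicate is a separate animal, nor the cell type or promoter through which Cebpa was deleted. The p-values therefore measure the spread between these arrays, which may be technical. The title of the series names the balance of proteases and anti-proteases under C/EBP alpha, the transcription factor that Cebpa encodes, as its question.

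An imbalance between proteases and their inhibitors injures airways, because enzymes released by neutrophils and macrophages digest the matrix as well as microbes. Serpins are suicide inhibitors: the target protease cuts an exposed loop and is trapped in a covalent complex. SLPI belongs to the whey acidic protein (WFDC) family, is secreted by airway epithelium and blocks neutrophil elastase and cathepsin G, whereas cystatins block lysosomal cysteine proteases such as the cathepsins reversibly.

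The values are deposited log2 values made with RMA, so a difference of 1 is a doubling, and no probe set's level is set against that of another. Of the 18 arrays, 1 went against its label. Cebpa, the deleted gene, read 7.89 on control replicate 1 at 0 hr, against 9.69 to 10.52 on the other 8 control arrays and 7.83 to 9.07 on the 9 Cebpa d/d arrays, the highest of which was replicate 1 at 72 hr. The library labelled control 0 hr replicate 1 therefore touches each comparison with control at 0 hr. Values without it are given beside results of Cstb, Serpinb12, Slpi, Serpinb9 and Serpinb6a. The plot of genotype differences also marks the 0 hr values of the 9 genes without it. Comparisons with control at 0 hr for Serpinh1, Cst3 and the genes of the lists are given only with it. The same holds for the genotype differences as a mean over the 3 times. The female-specific transcript pattern was seen on 1 of 3 arrays of each group at 0 and 3 hr and on 3 of 3 at 72 hr. Sex and the 72 hr time are therefore partly confounded in every difference of 72 hr from an earlier time. With sex as a covariate, a term that rests on the arrays at 0 and 3 hr, the only call of the 9 genes to change was that of Serpinb6a from 0 to 72 hr in control. The mean of 6 club cell markers was 11.98 to 12.53 on control arrays at 0 hr and 11.53 to 11.73 at 72 hr, and 12.41 to 12.51 and 11.51 to 12.10 on Cebpa d/d arrays, so that it was lower at 72 hr without overlap in both. Heart muscle markers lay between 10.05 and 11.06 on the Cebpa d/d arrays at 0 hr, between 7.31 and 9.02 on the control arrays at 0 hr, and at 8.20 or less on all others. In such bulk samples, fewer cells of a type and less RNA per cell cannot be told apart.

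**Figure D1:**
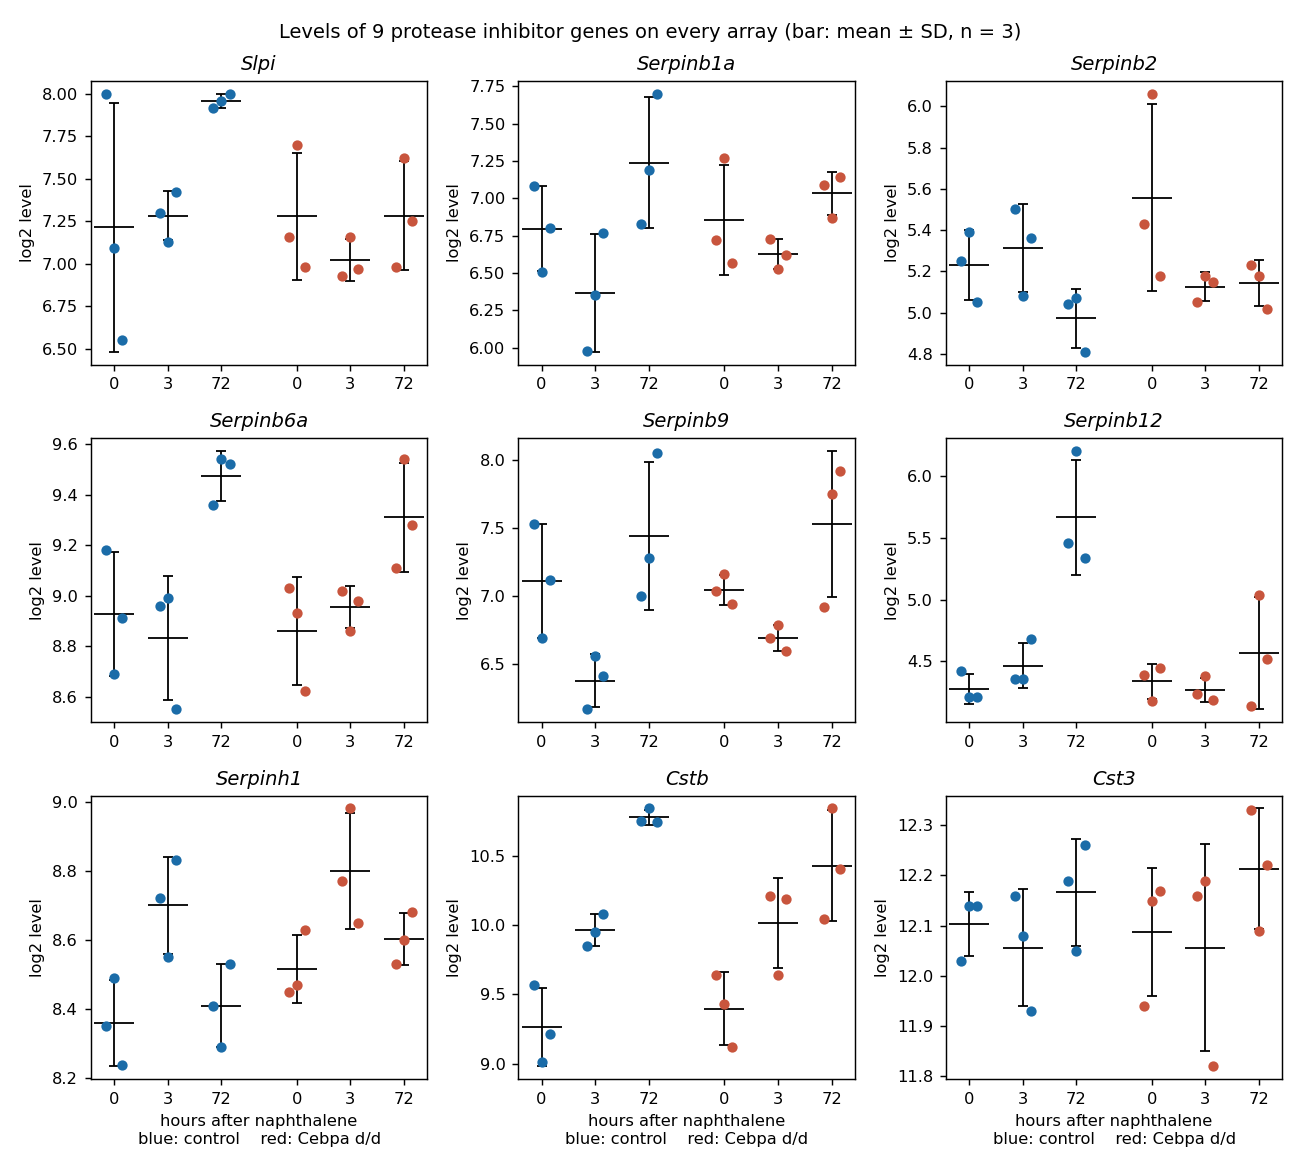
Deposited log2 value of each of the 9 genes (1 panel per gene, y axis) on the 18 arrays, by group along the x axis, with points for arrays and bars for mean ± SD. Serpinb12 and Slpi have their highest group mean in control at 72 hr, Cstb is lowest in both groups at 0 hr, and the group means of Cst3 span 0.157.

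Since C/EBP alpha binds DNA, the promoter windows of Slpi and Serpinb12, the genes whose control and Cebpa d/d arrays did not overlap at 72 hr, are shown first. The sequences are those of RefSeq, build GRCm38.p6, from 250 bases before the annotated gene start to 50 after it, on the gene's strand. The Slpi window lies at chr2:164356458-164356757 on the minus strand, and the Serpinb12 windows, for 2 annotated starts, at chr1:106934199-106934498 and chr1:106938707-106939006 on the plus strand. Capitals mark matches to TTNNGNAA, a C/EBP core pattern, on either strand.
Slpi: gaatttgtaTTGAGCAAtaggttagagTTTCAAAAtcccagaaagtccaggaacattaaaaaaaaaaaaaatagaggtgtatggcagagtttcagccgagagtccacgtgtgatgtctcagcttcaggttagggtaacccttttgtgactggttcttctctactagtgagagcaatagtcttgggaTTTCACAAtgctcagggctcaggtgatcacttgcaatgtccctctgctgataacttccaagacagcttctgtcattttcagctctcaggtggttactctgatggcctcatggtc
Serpinb12 first start: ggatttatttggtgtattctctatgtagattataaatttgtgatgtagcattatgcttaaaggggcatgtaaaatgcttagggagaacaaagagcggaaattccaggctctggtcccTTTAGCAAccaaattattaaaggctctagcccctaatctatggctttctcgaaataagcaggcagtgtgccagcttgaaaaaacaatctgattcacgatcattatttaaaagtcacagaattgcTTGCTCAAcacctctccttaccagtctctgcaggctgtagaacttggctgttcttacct
Serpinb12 second start: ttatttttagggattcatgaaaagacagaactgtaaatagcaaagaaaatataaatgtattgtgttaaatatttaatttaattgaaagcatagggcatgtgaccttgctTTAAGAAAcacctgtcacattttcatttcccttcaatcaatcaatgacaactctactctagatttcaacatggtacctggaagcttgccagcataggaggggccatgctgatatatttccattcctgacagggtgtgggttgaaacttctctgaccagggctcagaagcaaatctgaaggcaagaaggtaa
The Slpi window held 3 matches, which begin at -241, -223 and -64 relative to the start. The first Serpinb12 window held 2, at -133 and -9, and the second held 1, at -141. The first Serpinb12 window also held 1 match to the AP-1 pattern TGANTCA, at -45, and the second 1 match to TGACNNNGC, the core of the NRF2 element, at -151. The table held 10 windows for 7 of the genes, all but Cstb and Serpinb1a. Of these, 7 held TTNNGNAA, 3 held TGANTCA and 2 held TGACNNNGC. The 2 Serpinb2 windows overlap and share 1 match to each of the first 2 patterns, which is counted in both, and no match to one pattern overlapped a match to another. Among the 32817 windows of the table the shares were 40.7%, 7.81% and 12.4%. The single windows of Serpinh1 and Cst3 held none of the patterns. A match describes these letters only.

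In control mice 72 hr after naphthalene, 3 of the 9 inhibitors were higher than at 0 hr and none was lower, while 7.15% of all genes passed the test (4.95% higher and 2.2% lower). A gene passed, and is called higher or lower, at an adjusted p under 0.05 in limma's moderated test with Benjamini-Hochberg adjustment over the 19938 genes, and each ± beside a difference is a standard error. Cstb, Serpinb12 and Serpinb6a rose. The median change of the 9 genes was 0.44, against -0.02 over all genes. Because the 9 were chosen with earlier results of these data known, their count and median do not speak for protease inhibitors as a class. For Cstb, Serpinb12 and Serpinb6a the arrays at 72 and 0 hr did not overlap, as for 13.1% of all genes in that direction. Among Cebpa d/d mice 1 of the 9, Cstb, was higher at 72 hr than at 0 hr, where 4.8% of all genes passed, and the median change was 0.18, against -0.02. The arrays did not overlap for Cstb and Serpinb6a, as for 12.2% of all genes in that direction. Both time changes share their arrays with the genotype comparisons. A test of unequal 72 hr change in the genotypes called 0 of the 9, where it called 0.0953% of all genes, and 1, Serpinb12, had an unadjusted p under 0.05 (4.47% of all genes) and a size of at least 1.5-fold (1.43%). The same test for the 3 hr change called 0 of the 9 and 0% of all genes, and at an unadjusted p under 0.05 it held 0 of the 9 and 6.85% of all genes.

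Cstb encodes cystatin B, an inhibitor of cathepsins that acts inside the cell. On the control arrays it read 9.57, 9.01 and 9.21 at 0 hr, 9.85, 9.95 and 10.08 at 3 hr, and 10.75, 10.84 and 10.74 at 72 hr. On the Cebpa d/d arrays it read 9.64, 9.43 and 9.12 at 0 hr, 10.21, 9.64 and 10.19 at 3 hr, and 10.04, 10.84 and 10.40 at 72 hr. In both genotypes every array at 3 and 72 hr lay above every array at 0 hr, although the closest pair in Cebpa d/d at 3 and 0 hr round to the same 9.64. From 0 to 72 hr Cstb rose by 1.51 ± 0.20 in control, which is 2.85-fold (adjusted p = 0.000358), and by 1.03 ± 0.20 in Cebpa d/d, which is 2.04-fold (adjusted p = 0.00522). Without the library labelled control replicate 1 at 0 hr the control rise was 1.67 ± 0.21 (adjusted p = 0.000477). From 3 to 72 hr Cstb rose by 0.81 ± 0.20 in control (adjusted p = 0.00892), and the difference in Cebpa d/d was 0.41 ± 0.20 (adjusted p = 0.236).

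The first 3 hr gave Cstb a difference of 0.70 ± 0.20 in control (adjusted p = 0.0588) and 0.62 ± 0.20 in Cebpa d/d (adjusted p = 0.0938), neither of which passed. Without that library the control difference was 0.86 ± 0.21 (adjusted p = 0.0514). Between genotypes Cstb differed by 0.13 ± 0.20 at 0 hr, 0.05 ± 0.20 at 3 hr and -0.35 ± 0.20 at 72 hr, none of which passed (adjusted p = 0.824 at 72 hr), and the 0 hr value was 0.29 ± 0.21 without that library (adjusted p = 0.755). The lowest Cstb value at 72 hr was that of Cebpa d/d replicate 1, and without this array the genotype difference was -0.15. The 3 Cstb calls were kept under all 27 alternatives to the test.

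Serpinb12, a clade B serpin of epithelia that inhibits trypsin-like proteases, read higher in control mice at 72 hr than in all other groups. The control arrays read 4.42, 4.21 and 4.21 at 0 hr, 4.36, 4.36 and 4.68 at 3 hr, and 5.46, 6.20 and 5.34 at 72 hr. The Cebpa d/d arrays read 4.39, 4.18 and 4.45 at 0 hr, 4.24, 4.38 and 4.19 at 3 hr, and 4.14, 5.04 and 4.52 at 72 hr. All 3 control arrays at 72 hr lay above the other 15 arrays. All 18 values lay below the medians of the arrays, which were 6.48 to 6.65. RMA values give no background level to set the lower values against, so whether the gene was read at all outside control at 72 hr was not tested.

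In control, Serpinb12 rose by 1.39 ± 0.21 from 0 to 72 hr, which is 2.61-fold (adjusted p = 0.00106; 1.46 without the library labelled control replicate 1 at 0 hr, adjusted p = 0.00266), and by 1.20 ± 0.21 from 3 to 72 hr, which is 2.30-fold (adjusted p = 0.000974). The same differences in Cebpa d/d were 0.23 ± 0.21 (adjusted p = 0.655) and 0.30 ± 0.21 (adjusted p = 0.473). At 72 hr Cebpa d/d minus control was -1.10 ± 0.21, with a 95% confidence interval of -1.54 to -0.66, and ranked number 17 of all genes by p, but missed the threshold (adjusted p = 0.0827). The test of whether the 72 hr change differed between genotypes gave -1.16 ± 0.30, which did not pass (adjusted p = 0.303), and -1.23 ± 0.32 without that library (adjusted p = 0.304). Without Cebpa d/d replicate 2 at 72 hr, the highest of its group, the genotype difference was -1.34 and passed (adjusted p = 0.0134), and without replicate 1, the lowest, it was -0.89 ± 0.21 (adjusted p = 0.374).

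Slpi, the secreted inhibitor of neutrophil elastase, also read higher on the control than on the Cebpa d/d arrays at 72 hr, but its groups at 0 hr were widely spread. The control arrays read 8.0, 7.09 and 6.55 at 0 hr, 7.30, 7.13 and 7.42 at 3 hr, and 7.92, 7.96 and 8.0 at 72 hr. The Cebpa d/d arrays read 7.16, 7.70 and 6.98 at 0 hr, 6.93, 7.16 and 6.97 at 3 hr, and 6.98, 7.62 and 7.25 at 72 hr. At 72 hr the control arrays lay within 0.08 of each other and above all Cebpa d/d arrays, and at 0 hr the control value of 8.0 was that of the array whose Cebpa level went against its label.

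In control, Slpi differed by 0.75 ± 0.26 between 72 and 0 hr (adjusted p = 0.101) and by 0.67 ± 0.26 between 72 and 3 hr (adjusted p = 0.0804), and neither passed. Without the library labelled control replicate 1 at 0 hr, where Slpi was 1.18 above the mean of the other two arrays, the difference from 0 hr was 1.14 ± 0.21, which is 2.21-fold, and passed (adjusted p = 0.00453). The difference from 3 hr also passed without that library (adjusted p = 0.0179), without control replicate 3 at 0 hr (adjusted p = 0.0403) and with only the compared groups in the fit (adjusted p = 0.00562). Cebpa d/d minus control at 0 hr was 0.07 ± 0.26, and 0.46 ± 0.21 without that library (adjusted p = 0.478). Slpi in Cebpa d/d differed by 0.00 ± 0.26 between 72 and 0 hr, with a 95% confidence interval of -0.56 to 0.56. At 72 hr Cebpa d/d minus control was -0.68 ± 0.26, with an interval of -1.24 to -0.12 (adjusted p = 0.741). The difference between the genotypes' 72 hr changes was -0.75 ± 0.37, and -1.14 ± 0.28 without that library (adjusted p = 0.25), and did not pass either way.

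**Figure D2:**
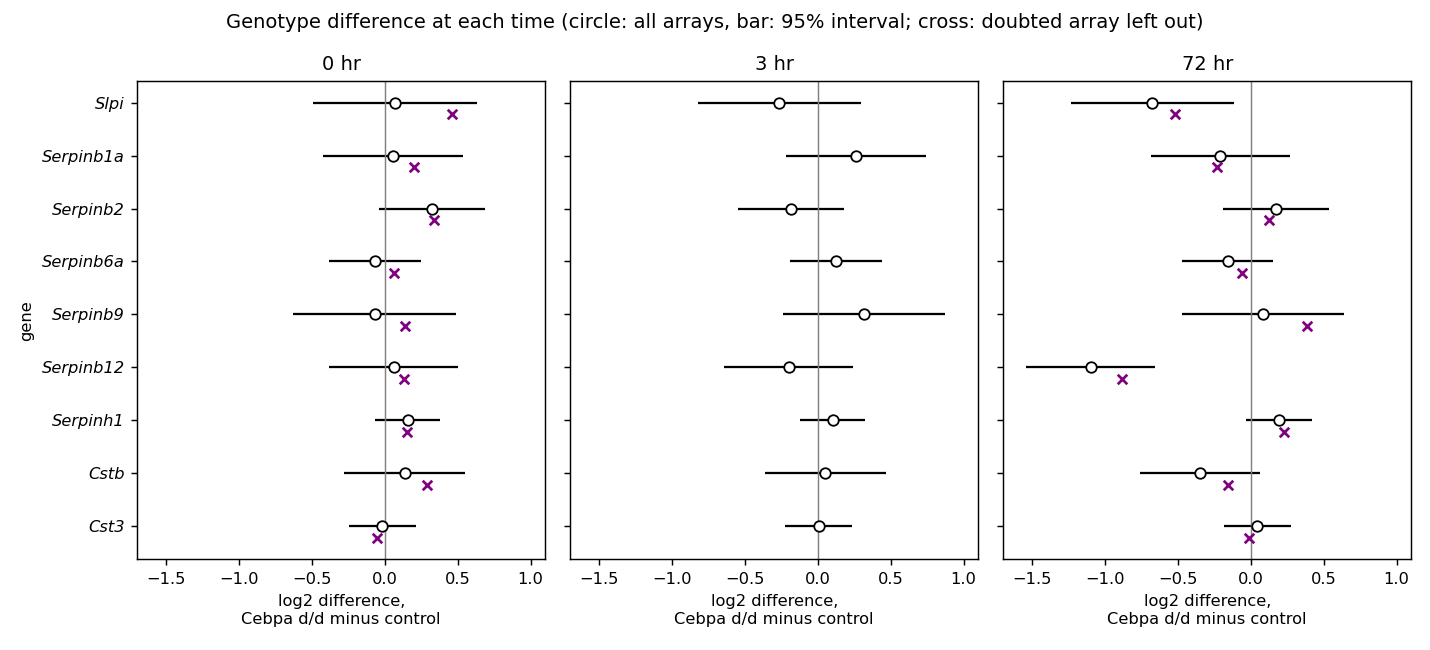
Cebpa d/d minus control, as a log2 difference (x axis), for each of the 9 genes at 0, 3 and 72 hr, with circles for all arrays, bars for the 95% confidence interval and crosses for the value without the doubted array of that time. At 72 hr the intervals of Serpinb12, at -1.54 to -0.66, and Slpi, at -1.24 to -0.12, lie below 0, and no difference passed after adjustment.

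Between genotypes none of the 9 genes passed at any time, nor as a mean over the 3 times. The share of all genes that passed was 0.336% at 0 hr, 0.015% at 3 hr, 0.0702% at 72 hr and 0.306% for the mean, so calls were rare among all genes too. At an unadjusted p under 0.05 the 9 genes gave 0, 0, 2 and 2, beside 8.53%, 5.02%, 6.31% and 8.57% of all genes. Both of the 2 at 72 hr, Slpi and Serpinb12, also differed by at least 1.5-fold, as 0.838% of all genes did. With arrays weighted by their fit Serpinb12 passed at 72 hr (-1.14 ± 0.18, adjusted p = 0.0104). The arrays of the genotypes did not overlap at 72 hr for 2 of the 9, Slpi and Serpinb12, both lower in Cebpa d/d, where 6.19% of all genes were lower without overlap. At 3 hr they did not overlap for Serpinb9, at 0.32 ± 0.26 (adjusted p = 0.986), where 3.74% of all genes were higher without overlap. Heart muscle markers differed between the genotypes at 0 hr, as given above, and their part in the 0 hr values was not tested. Over the 3 times the unadjusted results were Serpinb12, at -0.41 ± 0.12 (adjusted p = 0.217), and Serpinh1, at 0.15 ± 0.06 (adjusted p = 0.464).

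The clade B serpins of chromosome 13, Serpinb1a, Serpinb6a and Serpinb9, had their lowest control mean at 3 hr and rose by 72 hr in control mice. They have paralogues in the mouse, and reading of these by the probe sets was not tested. Of the 9 genes 5 were higher at 72 hr than at 3 hr in control and none was lower, where 19.7% of all genes passed (11.2% higher and 8.57% lower): these 3, Serpinb12 and Cstb. Arrays did not overlap between these times in control for 6 genes that read higher, the 5 and Slpi, and for 2 that read lower, Serpinb2 and Serpinh1, beside 17.1% and 23.3% of all genes. None of the 9 passed over the same interval in Cebpa d/d, where 8.55% of all genes did. At an unadjusted p under 0.05 there were 2, Serpinb9 and Serpinb6a, beside 21.4% of all genes, and 1 of them, Serpinb9, differed by at least 1.5-fold, as 6.06% of all genes did. Whether the 3 to 72 hr changes differ between genotypes was not tested.

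Serpinb9 protects cells from granzyme B, the killing protease of cytotoxic lymphocytes. It read 7.53, 6.69 and 7.12 on the control arrays at 0 hr, 6.17, 6.56 and 6.41 at 3 hr, and 7.00, 7.28 and 8.05 at 72 hr. The Cebpa d/d arrays read 7.04, 7.16 and 6.94 at 0 hr, 6.69, 6.79 and 6.60 at 3 hr, and 6.92, 7.75 and 7.92 at 72 hr. In both genotypes all arrays at 3 hr lay below those at 0 and at 72 hr. From 3 to 72 hr Serpinb9 rose by 1.07 ± 0.26 in control, which is 2.09-fold (adjusted p = 0.0105), a call lost without control replicate 3 at 72 hr (0.76, adjusted p = 0.061). In Cebpa d/d the difference was 0.83 ± 0.26 (adjusted p = 0.0624), and 1.14 without replicate 1 at 72 hr, which passed (adjusted p = 0.0094). It also passed without the library labelled control replicate 1 at 0 hr (adjusted p = 0.0473) and without control replicate 3 at 72 hr (adjusted p = 0.0333), where the value did not move. The difference from 0 to 3 hr was -0.73 ± 0.26 in control (adjusted p = 0.128), -0.53 ± 0.28 without that library (adjusted p = 0.378), and -0.35 ± 0.26 in Cebpa d/d (adjusted p = 0.567).

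Serpinb6a, a broad inhibitor of trypsin-like proteases and cathepsin G, changed less but with a narrow spread. Its control arrays read 9.18, 8.69 and 8.91 at 0 hr, 8.96, 8.99 and 8.55 at 3 hr, and 9.36, 9.54 and 9.52 at 72 hr. Its Cebpa d/d arrays read 9.03, 8.93 and 8.62 at 0 hr, 9.02, 8.86 and 8.98 at 3 hr, and 9.11, 9.54 and 9.28 at 72 hr. Within each genotype the arrays at 72 hr lay above those at both earlier times. In control it rose by 0.54 ± 0.15 from 0 hr, which is 1.46-fold (adjusted p = 0.0361), and by 0.64 ± 0.15 from 3 hr (adjusted p = 0.00716). In Cebpa d/d the differences were 0.45 ± 0.15 (adjusted p = 0.0997) and 0.36 ± 0.15 (adjusted p = 0.167). The control rise from 0 hr was 0.67 without the library labelled control replicate 1 at 0 hr (adjusted p = 0.0169). It lost its call with sex as a covariate (0.49, adjusted p = 0.129), with only the compared groups in the fit (adjusted p = 0.0536) and without any 1 of 5 control arrays, those at 72 hr and replicates 2 and 3 at 0 hr (adjusted p = 0.0514 to 0.152).

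Serpinb1a, an inhibitor of neutrophil elastase, cathepsin G and proteinase 3, read 7.08, 6.51 and 6.80 on the control arrays at 0 hr, 5.98, 6.35 and 6.77 at 3 hr, and 6.83, 7.19 and 7.70 at 72 hr. On the Cebpa d/d arrays it read 6.72, 7.27 and 6.57 at 0 hr, 6.73, 6.53 and 6.62 at 3 hr, and 7.09, 6.87 and 7.14 at 72 hr. At 72 hr all arrays lay above those at 3 hr of their own genotype and overlapped those at 0 hr. Its rise from 3 to 72 hr was 0.87 ± 0.23 in control, which is 1.83-fold (adjusted p = 0.0138), and the difference in Cebpa d/d was 0.40 ± 0.23 (adjusted p = 0.341). The control call was lost without control replicate 1 at 3 hr (0.68, adjusted p = 0.0553), with only the compared groups in the fit (adjusted p = 0.0556) and without control replicate 3 at 72 hr (0.64, adjusted p = 0.0789). With control replicate 3 at 72 hr left out, 3 of the 9 genes were called over this interval.

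**Figure D3:**
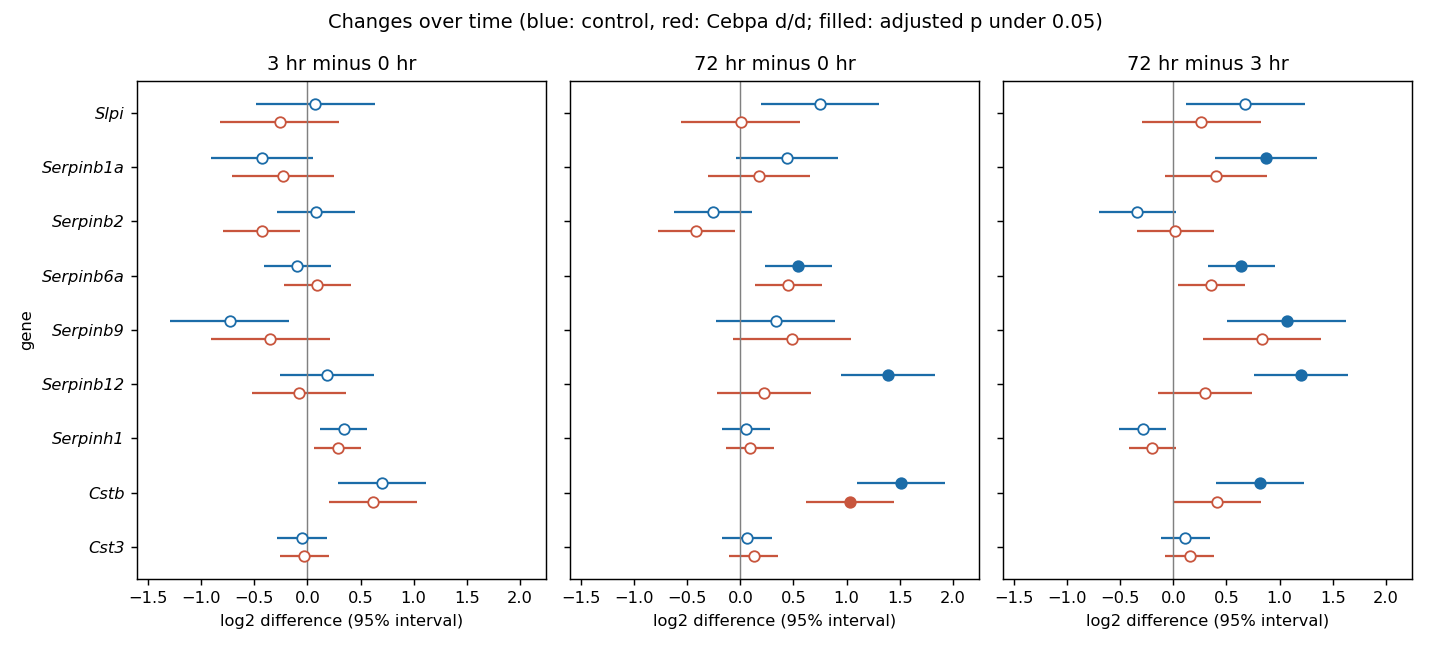
Log2 difference (x axis) of each of the 9 genes from 0 to 3 hr, 0 to 72 hr and 3 to 72 hr, in control and in Cebpa d/d, with 95% confidence intervals as bars and filled points for an adjusted p under 0.05. From 0 to 72 hr Cstb and Serpinb12 lie furthest above 0 in control, at 1.51 and 1.39, and in Cebpa d/d Cstb lies at 1.03 and Serpinb12 at 0.23.

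Serpinh1 encodes HSP47, a chaperone of procollagen in the endoplasmic reticulum that inhibits no protease, and its pattern ran the other way in time. It read 8.35, 8.49 and 8.24 on the control arrays at 0 hr, 8.72, 8.55 and 8.83 at 3 hr, and 8.41, 8.29 and 8.53 at 72 hr. On the Cebpa d/d arrays it read 8.45, 8.47 and 8.63 at 0 hr, 8.77, 8.98 and 8.65 at 3 hr, and 8.53, 8.60 and 8.68 at 72 hr. In both genotypes the arrays at 3 hr lay above those at 0 hr. The difference from 0 to 3 hr was 0.34 ± 0.11 in control (adjusted p = 0.0824) and 0.29 ± 0.11 in Cebpa d/d (adjusted p = 0.155), and that from 3 to 72 hr was -0.29 ± 0.11 in control (adjusted p = 0.0628), none of which passed.

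None of the 9 passed between 0 and 3 hr in either genotype, where 3.5% of all genes did in control and 4.38% in Cebpa d/d, and 3 genes in each had an unadjusted p under 0.05, beside 21% and 17.2% of all genes. These were Cstb, Serpinb9 and Serpinh1 in control, and Cstb, Serpinh1 and Serpinb2 in Cebpa d/d. With at least 1.5-fold as well there were 2 in control, Cstb and Serpinb9, and 1 in Cebpa d/d, Cstb, beside 4% and 3.67% of all genes. In both genotypes arrays at 0 and 3 hr did not overlap for Cstb and Serpinh1, which read higher, and Serpinb9, which read lower. The share of all genes without overlap between these times is not given here, so the lack of overlap has no background beside it. Serpinb2, the plasminogen activator inhibitor of macrophages and stressed epithelium, read 5.25, 5.39 and 5.05 on the control arrays at 0 hr, 5.50, 5.08 and 5.36 at 3 hr, and 5.04, 5.07 and 4.81 at 72 hr. The Cebpa d/d arrays read 5.43, 6.06 and 5.18 at 0 hr, 5.05, 5.18 and 5.15 at 3 hr, and 5.23, 5.18 and 5.02 at 72 hr. The highest value, 6.06, was that of Cebpa d/d replicate 2 at 0 hr, and no other array was above 5.50. Its Cebpa d/d difference from 0 to 3 hr was -0.43 ± 0.17 (adjusted p = 0.193).

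Cst3 encodes cystatin C, a secreted inhibitor that most cells make, and its 18 values lay between 11.82 and 12.33. Its control arrays read 12.03, 12.14 and 12.14 at 0 hr, 12.16, 12.08 and 11.93 at 3 hr, and 12.19, 12.05 and 12.26 at 72 hr, and its Cebpa d/d arrays read 11.94, 12.15 and 12.17, then 12.16, 12.19 and 11.82, then 12.33, 12.09 and 12.22. Every group overlapped its neighbours in the order of the levels. The difference between genotypes at 72 hr was 0.04, with a 95% confidence interval of -0.19 to 0.28, and that between 72 and 0 hr was 0.06, with an interval of -0.17 to 0.30, in control and 0.13, with an interval of -0.11 to 0.36, in Cebpa d/d.

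In the order of the group means each group was set only against the next, and these neighbours overlapped except at a few steps. For Slpi and Serpinb12 the step fell below the control group at 72 hr, for Serpinb6a below the 2 groups at 72 hr and for Cstb above the 2 groups at 0 hr. For Serpinb9 control at 3 hr lay below all other groups. Cebpa d/d at 3 hr lay apart from its neighbours but, at 6.60 to 6.79, overlapped control at 0 hr, at 6.69 to 7.53. For Serpinb1a, Serpinb2, Serpinh1 and Cst3 no neighbours were apart.

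Markers of other cells also differed between the groups. The mean of 7 macrophage markers was 7.18 to 7.30 on control arrays at 0 hr and 7.93 to 8.26 at 72 hr, and 7.33 to 7.46 and 7.30 to 7.94 on Cebpa d/d arrays. The mean of 6 neutrophil markers at 0 and 72 hr ranged from 6.30 to 7.04 and from 7.19 to 7.94 in control, and from 6.43 to 6.98 and from 6.46 to 7.29 in Cebpa d/d. At 3 hr, when Serpinb1a and Serpinb9 had their lowest means, it ranged from 6.31 to 8.15 in control and from 6.44 to 7.37 in Cebpa d/d. Single members need not follow their list. Chil3, 1 of the 7 macrophage markers, had group means of 7.18 at 0 hr and 9.28 at 72 hr in control and of 7.06 and 7.67 in Cebpa d/d. Ly6g, 1 of the 6 neutrophil markers, stayed between 4.18 and 4.52 in all groups, while the mean of its list in control was 6.69 at 0 hr and 7.46 at 72 hr. Cebpa d/d replicate 1 at 72 hr had the lowest macrophage mean, 7.30, of its group, and also the lowest Cstb, Serpinb12, Serpinb9, Slpi, Serpinb6a and Serpinh1. Its Serpinb2 (5.23) and Cst3 (12.33) were the highest of the group, and its Serpinb1a (7.09) lay between the others. This array also had the lowest neutrophil (6.46), fibroblast (8.63), smooth muscle (9.91), alveolar type 1 (8.92) and alveolar type 2 (10.03) means of its group. Its club cell (12.10), ciliated (8.94), endothelial (9.14) and lymphocyte (6.04) means were the highest, and its heart muscle mean lay between the others. The mean of 6 fibroblast markers was 8.14 to 8.41 in control at 3 hr and 8.86 to 9.09 at 72 hr, and 8.47 to 8.65 and 8.63 to 9.03 in Cebpa d/d. Markers that passed were also counted in each list, and no list was tested as a set. From 0 to 72 hr in control 3 of 7 macrophage, 1 of 6 ciliated cell and 1 of 6 fibroblast markers were higher, 4 of 5 endothelial, 2 of 5 lymphocyte and 2 of 6 club cell markers were lower, and 1 alveolar type 1 marker passed in each direction. Over all genes 4.95% were higher and 2.2% lower, and a single marker of a list says little beside such shares. From 3 to 72 hr in control 4 of 7 macrophage, 4 of 6 ciliated and 4 of 6 fibroblast markers were higher. So were 3 of 6 alveolar type 2, 3 of 5 smooth muscle and 2 of 5 alveolar type 1 markers. Lower were 2 of 6 club cell and 2 of 5 lymphocyte markers. The background was larger here, with 11.2% of all genes called higher and 8.57% called lower over that interval. In Cebpa d/d from 0 to 72 hr 3 of 6 ciliated markers were higher, and 7 of 7 heart muscle and 2 of 5 endothelial markers were lower, with 1 alveolar type 1 marker in each direction, beside 3.39% of all genes higher and 1.42% lower. In Cebpa d/d from 3 to 72 hr 3 of 6 ciliated, 3 of 6 fibroblast and 1 of 7 macrophage markers were higher and 1 of 6 club cell markers was lower, beside 4.88% and 3.67% of all genes. The part of these cells in the inhibitors' changes was not tested.

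**Figure D4:**
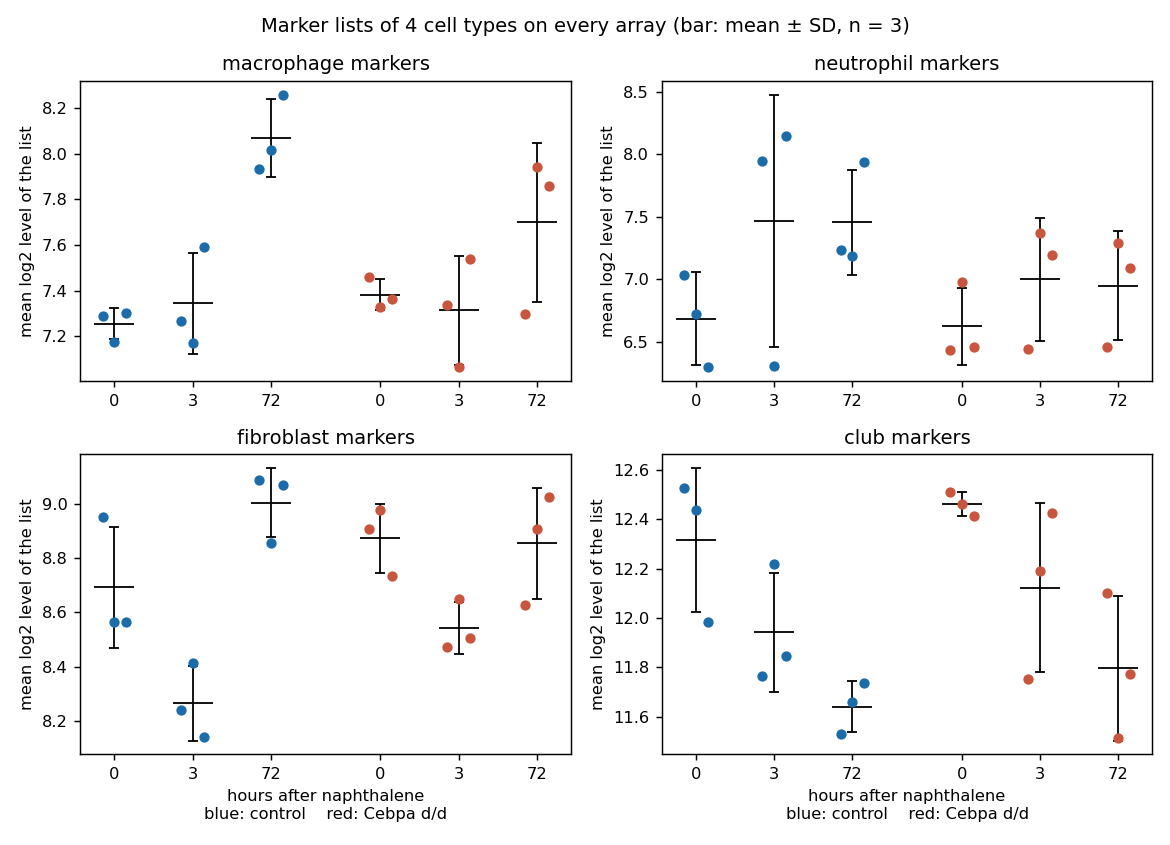
Mean log2 level of the marker genes of each cell type (y axis) on the 18 arrays by group (x axis), for macrophages, neutrophils, fibroblasts and club cells, with points for arrays and bars for mean ± SD. The macrophage mean is 7.93 to 8.26 in control at 72 hr against 7.18 to 7.30 at 0 hr, and the club cell mean is 11.53 to 11.73 against 11.98 to 12.53.

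The 81 measured serpins, cystatins and WFDC genes, which include the 9, hold other genes that changed. From 0 to 72 hr 6 were higher and 3 lower in control, and 2 higher and 1 lower in Cebpa d/d, and their median change was -0.01 and -0.02, against -0.02 over all genes in each. Over all genes 4.95% were higher and 2.2% lower in control, and 3.39% and 1.42% in Cebpa d/d. Wfdc3, a relative of Slpi, rose by 2.22 ± 0.28 in control (adjusted p = 0.000316) and by 2.30 ± 0.28 in Cebpa d/d (adjusted p = 0.000151), the largest of the 81 in each. Serpina7, a thyroxine-binding serpin, rose by 1.34 ± 0.21 in control (adjusted p = 0.00142), and Serpina3n, an acute phase inhibitor, by 1.98 ± 0.45 (adjusted p = 0.0129). In Cebpa d/d the differences of Serpina7 and Serpina3n were 0.66 and 1.16, and neither passed. Wfdc10 fell in both genotypes, by 0.61 ± 0.13 in control (adjusted p = 0.0111) and by 0.48 ± 0.13 in Cebpa d/d (adjusted p = 0.0489), and Serpini2 and Serpina1c fell in control, by 0.38 and 0.77.

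From 3 to 72 hr 11 of the 81 were higher and 4 lower in control, and 3 higher and 2 lower in Cebpa d/d, where 11.2% and 8.57% of all genes were in control and 4.88% and 3.67% in Cebpa d/d. Serpinb6b, a paralogue of Serpinb6a, rose by 1.08 ± 0.16 in control (adjusted p = 0.000255) and by 0.98 ± 0.16 in Cebpa d/d (adjusted p = 0.00107), after a fall of 0.66 ± 0.16 in the first 3 hr in control (adjusted p = 0.0314). Serpinb8 rose by 0.68 and 0.72. Of the 13 clade B serpins of chromosome 13 that were measured, 4 rose in control, Serpinb1a, Serpinb6a, Serpinb6b and Serpinb9, and of the 11 of chromosome 1, Serpinb12 and Serpinb8 rose. Between 0 and 3 hr 1 of the 81, Serpinb6b, was lower in control, and in Cebpa d/d Serpina3n rose by 1.84 ± 0.45 (adjusted p = 0.026) and Wfdc10 fell. None of the 81 passed between genotypes or in the tests of unequal change.

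**Figure D5:**
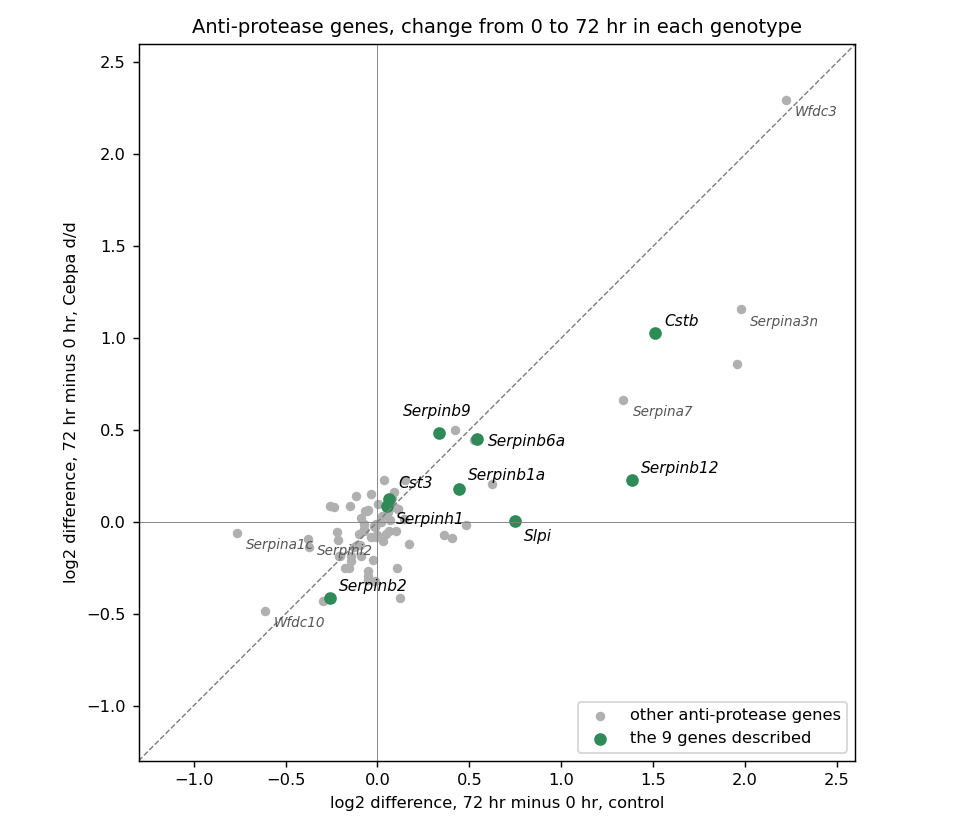
Change from 0 to 72 hr in control (x axis) and in Cebpa d/d (y axis), log2, for the 81 serpins, cystatins and WFDC genes, with the 9 genes in green and a dashed line where the changes are equal. Wfdc3 lies at 2.22 and 2.30, Cstb at 1.51 and 1.03, and Serpinb12 at 1.39 and 0.23.

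Of 9 lysosomal proteases, mostly cysteine proteases of the kind that cystatins bind but also the aspartic protease Ctsd, 5 were higher at 72 than at 0 hr in control and none lower, where 4.95% of all genes were higher, with a median of 0.74 against -0.02 over all genes. Lgmn, the asparaginyl endopeptidase that cystatin C inhibits, rose by 1.20 ± 0.18 (adjusted p = 0.00113), Ctsd by 0.74 ± 0.14 and Ctsc, which activates neutrophil serine proteases, by 0.81 ± 0.18. In Cebpa d/d 1 rose, Lgmn by 0.83 ± 0.18 (adjusted p = 0.0136), with a median of 0.27. From 3 to 72 hr 6 rose in control and 2 in Cebpa d/d, where 11.2% and 4.88% of all genes were higher. Ctsc was lower in Cebpa d/d over the 3 times, by -0.56 ± 0.10 (adjusted p = 0.0275), and was the only gene of the 4 lists described here to pass between genotypes. No test of unequal change passed for the list.

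Of 14 measured serine proteases, 1 rose and 1 fell from 0 to 72 hr in each genotype, where 7.15% of all genes passed in control and 4.8% in Cebpa d/d. They are of the class of enzyme that SLPI and many serpins block, and which of them the inhibitors described here block was not tested. Tmprss2, an airway surface protease, rose by 0.88 ± 0.10 in control (adjusted p = 0.000174) and by 0.92 ± 0.10 in Cebpa d/d (adjusted p = 6.1e-05), Gzma fell by 1.44 ± 0.35 in control (adjusted p = 0.0202), and Prss23 fell by 0.73 ± 0.14 in Cebpa d/d (adjusted p = 0.00565). Gzma also read lower at 72 hr in Cebpa d/d, with group means of 7.79 and 6.84, but did not pass. The Prss23 means at 0 and 72 hr were 8.14 and 7.41 in Cebpa d/d and 7.64 and 7.62 in control. Of 12 collagen and collagen-modifying genes, the company of Serpinh1, Plod1 and Col3a1 fell in control between 0 and 3 hr, by 0.49 and 0.59, where 3.5% of all genes passed, whereas Serpinh1 read higher at 3 hr. From 3 to 72 hr 4 were higher and 2 lower in control, and 4 higher and 1 lower in Cebpa d/d, where 19.7% and 8.55% of all genes passed. Col3a1 rose by 0.97 ± 0.15 in control (adjusted p = 0.000364), and Serpinh1 read lower.

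3 of the genes have patterns whose group means span at least 1, and the genes closest to each, by the root mean square of the log2 difference over the 18 arrays after each gene was centred, were sought among all genes. Those closest to Cstb were Cystm1 (0.18), S100a6 (0.19) and Slc6a14 (0.20), where the median over all genes was 0.61. Those closest to Serpinb12 were Adig, Tmc5 and Psapl1, at 0.23 each, against a median of 0.58. Those closest to Serpinb9 were Serpinb6b (0.21), Gatm (0.23) and Slit2 (0.24), against 0.54. Their likeness is a description of these 18 arrays.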

How the data were processed

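Transcript levels were measured on 18 arrays, 3 in each of 6 groups. The deposited values are log2 values that the authors produced by RMA (background correction, normalization between arrays, summary of probes), as the submitters' processing notes name it. Its version, the build and any filter are not given in the sources used here. Precision is limited by 3 arrays per group. Of 35557 probe sets, 21789 had 1 gene symbol, and the probe set with the highest mean stood for a gene, which gave 19938 genes. RefSeq symbols (GRCm38.p6) matched 19855 of them.

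In R 4.3.3, limma 3.58.1 fitted 1 model of the 6 group means to all arrays, with 12 residual degrees of freedom and a prior of 4.49, and gave 12 contrasts, which share arrays. The members and lists were chosen with earlier results of these data known. Named genes were the 9 members, called genes of the lists (at most 4, or 3 for proteases and collagen partners, per direction), and the 3 most alike for members whose group means span at least 1. The lists were anti-proteases, serine and lysosomal proteases, collagen partners and cell markers. The script was tested on simulated data. Alternatives were median centring, a filter on dim genes, the mean of probe sets, trend and robust moderation, array weights, only the compared groups, the replicate block, sex, an unadjusted p with a 1.5-fold change, and each array left out.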

Additional observations from a re-analysis of the deposited data

How the results depend on the processing

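The count of the 9 genes called from 0 to 72 hr in control was 3, and 2 to 4 when an array was left out. The count from 3 to 72 hr in control was 5, and 3 when genes below the median level were left out, which removes Serpinb1a, Serpinb2 and Serpinb12 from the test, and 3 to 6 when an array was left out. An unadjusted p with at least 1.5-fold called 2 genes in control from 0 to 3 hr, 1 in Cebpa d/d from 0 to 3 hr, 1 in Cebpa d/d from 3 to 72 hr, 2 between genotypes at 72 hr and 1 in the test of unequal 72 hr change, where the adjusted test called 0 each. With array weights the counts were 2, 1, 2 and 1 for the first 4 of these, and 2 in Cebpa d/d from 0 to 72 hr, where the main count was 1. The filter on dim genes called 1 gene in control from 0 to 3 hr and 1 in Cebpa d/d from 3 to 72 hr. With an array left out, these 4 counts ran from 0 to 1, and the count in Cebpa d/d from 0 to 72 hr stayed at 1. Without the library labelled control replicate 1 at 0 hr and Cebpa d/d replicate 1 at 72 hr together, chosen after seeing the data, the counts were 1 in control and 1 in Cebpa d/d from 0 to 3 hr, 3 in Cebpa d/d from 0 to 72 hr and 2 from 3 to 72 hr. The cause was not tested. No result changed direction while called.

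With the replicate number as a block the counts were 3, 5 and 1 for the calls from 0 to 72 hr and 3 to 72 hr in control and from 0 to 72 hr in Cebpa d/d, and 0 elsewhere, as without it. The numbers are names only: deviations of same-numbered arrays correlated at -0.288 to 0.199, above 0.1 in 7 of 45 pairs, and 4 of 18 arrays were closest to their own number. Over all genes, on which the background shares rest, the count with an array left out ran from 231 to 1414 from 0 to 3 hr (697 with all arrays), 614 to 1633 from 0 to 72 hr (1425) and 2307 to 4269 from 3 to 72 hr (3934) in control, and from 402 to 994 (874), 398 to 1272 (958) and 768 to 1902 (1705) in Cebpa d/d. Between genotypes it ran from 30 to 153 at 0 hr (67), 1 to 15 at 3 hr (3), 12 to 20 at 72 hr (14) and 22 to 201 for the mean (61), and for unequal change from 0 to 44 at 3 hr (0) and 3 to 48 at 72 hr (19).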

Other observations

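The genes most like Cstb and Serpinb12 in pattern gave the following values in the same test. S100a6, a calcium-binding protein, rose from 0 to 3 hr by 0.88 ± 0.20 in control (adjusted p = 0.0269) and by 0.75 ± 0.20 in Cebpa d/d (adjusted p = 0.0472), and from 0 to 72 hr by 1.38 and 0.96. Cystm1 rose from 0 to 72 hr by 1.41 ± 0.19 in control (adjusted p = 0.000511) and by 0.91 ± 0.19 in Cebpa d/d (adjusted p = 0.0105). Psapl1 rose by 1.75 ± 0.26 over that time in control (adjusted p = 0.000984), Tmc5 by 1.02 and Adig by 0.97, and none of these 3 passed in Cebpa d/d. Whether these changes differ between genotypes did not pass the test for Psapl1, Tmc5 or Adig. They were chosen for their likeness on these arrays and are a description.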
